A study of Mus musculus with 18 samples.

Results

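Fatty acid synthesis genes were followed in mouse liver through 10 genes chosen by name: Acly, Me1, Acaca, Acacb, Fasn, Elovl6, Scd1, Thrsp, Srebf1 and Pnpla3. All 10 were found among the 32285 genes of the count table, and all 10 were among the 12847 genes with enough counts to be tested. The libraries came from livers of 18 mice in 3 groups of 6. By the sex-linked RNA levels given below, replicates 1 to 3 of each group were male and replicates 4 to 6 female. Space pups were sired by germline stem (GS) cells, cultured spermatogonial stem cells of the DBA/2 strain, which had been kept frozen in orbit aboard the International Space Station for 6 months, and Ground pups by GS cells kept frozen on Earth for as long. The thawed cells were transplanted into the testes of W mice, which are congenitally infertile, and these males were mated with C57BL/6 females. The pups were taken at 10 weeks. BDF1 mice were wild-type controls whose own age is not stated. All 3 groups are labelled wild-type B6D2F1, so the pups shared culture, freezing, transplantation and a W recipient sire, none of which the BDF1 controls had. The study's methods trace the cells to mice with an EGFP transgene (act-EGFP) that had been bred into the DBA/2 background, and the labels do not say which pups carried it. How many GS cell cultures or recipient males stood behind the pups of a group is not given by the labels, so the p-values measure the spread between animals only.

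The liver makes fatty acids from sugar after a meal. Citrate leaves the mitochondrion and is split to acetyl-CoA, acetyl-CoA is carboxylated to malonyl-CoA, and fatty acid synthase joins these units with NADPH into palmitate, which is then elongated and desaturated. Transcription of these enzymes is driven by the insulin-responsive factor SREBP-1c and the carbohydrate-responsive factor ChREBP, so their mRNA is high after feeding, low in fasting and varies over the day. Feeding state and time of sampling are not given by the labels.

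Total counts ranged from 15407450 to 20562351 per library. Levels are in CPM, a gene's counts brought to a common library size, here with TMM factors. A count of 0 allows a level of up to 3 counts, which came to between 0.134 and 0.236 CPM. That limit covers counting error only. Libraries numbered 1 to 3 and those numbered 4 to 6 differed in every group: Xist, the RNA that coats the inactive X chromosome, was between 0 and 9.82 CPM in replicates 1 to 3 and between 702.5 and 1081 CPM in replicates 4 to 6. The 4 Y-linked genes summed to between 101.4 and 124 CPM in replicates 1 to 3 and to at most 1.304 CPM in replicates 4 to 6. The sets therefore part the libraries by sex, male in 1 to 3 and female in 4 to 6. For the pups, the study states that both F1 males and females were analysed. Dbp, a clock output gene, was between 0.836 and 5.98 CPM in replicates 1 to 3 and between 72.8 and 204.5 CPM in replicates 4 to 6. Space 4, Ground 5 and Ground 6 had the smallest TMM factors, 0.754, 0.762 and 0.705, and in these libraries the 10 most abundant genes took 34.8%, 36.5% and 39.5% of counts. The 8 hepatocyte markers were present in all libraries, summing to between 72009 and 119461 CPM in the 6 BDF1 and the 6 pup libraries numbered 1 to 3 and to between 242122 and 425137 CPM in the 6 pup libraries numbered 4 to 6, whereas 6 adipocyte markers summed to between 4.06 and 10.45 CPM and 5 pancreas markers to at most 0.591 CPM. The summed level of 11 markers of non-parenchymal cells ran from 140.2 to 323 CPM. In RNA from whole liver, fewer cells of a type and less RNA per cell cannot be told apart.

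The upstream sequences of 3 members are shown: Fasn and Acly, which moved together in both sets of replicates described later, and Pnpla3, which moved with both in replicates 1 to 3 and with neither in replicates 4 to 6. Each is the 250 bases before the RefSeq start on the gene's own strand, 5′ to 3′, in the mouse build GRCm38.p6. Capitals mark CCAAT, the box bound by NF-Y, or its reverse complement ATTGG, and GGGCGG, the GC box, or CCGCCC.
Fasn, chr11:120824548-120824797, minus strand: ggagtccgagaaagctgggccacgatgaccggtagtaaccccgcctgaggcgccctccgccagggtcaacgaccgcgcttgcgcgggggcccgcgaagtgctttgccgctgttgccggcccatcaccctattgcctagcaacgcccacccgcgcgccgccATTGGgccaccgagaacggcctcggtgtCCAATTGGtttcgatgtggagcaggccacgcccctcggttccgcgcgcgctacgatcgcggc
Acly, chr11:100528001-100528250, minus strand: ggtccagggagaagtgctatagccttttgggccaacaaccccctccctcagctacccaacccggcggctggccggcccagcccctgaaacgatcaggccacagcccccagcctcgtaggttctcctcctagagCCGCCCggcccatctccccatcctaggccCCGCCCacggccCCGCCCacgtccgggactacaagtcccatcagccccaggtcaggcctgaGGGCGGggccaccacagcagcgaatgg
Pnpla3, chr15:84167566-84167815, plus strand: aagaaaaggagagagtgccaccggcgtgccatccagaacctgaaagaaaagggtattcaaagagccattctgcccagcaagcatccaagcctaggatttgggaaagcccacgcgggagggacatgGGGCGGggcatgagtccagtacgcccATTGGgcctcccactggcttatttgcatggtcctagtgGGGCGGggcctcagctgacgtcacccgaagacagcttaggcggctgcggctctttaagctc
Fasn held 3 NF-Y boxes, of which the last pair overlapped, and no GC box. Acly held 4 GC boxes and no NF-Y box, and Pnpla3 held 1 NF-Y box and 2 GC boxes. Of 32851 such windows in the RefSeq table, 33.8% held an NF-Y box and 32.7% a GC box on either strand. The letters TCACNCCAC (a sterol response element, in 1.05% of windows) and CACGTG (an E-box, in 6.02%) were in none of these 3 windows.

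The 10 genes lie on 7 chromosomes of the mouse build GRCm38 in the GENCODE M21 annotation, and each has 1 count per library for the whole gene. On chromosome 11 lie Fasn (ENSMUSG00000025153) at chr11:120805846-120824547, Acly (ENSMUSG00000020917) at chr11:100476353-100528000 and Srebf1 (ENSMUSG00000020538) at chr11:60199089-60222581, all on the minus strand, and Acaca (ENSMUSG00000020532) at chr11:84129672-84401651 on the plus strand. On the minus strand are also Scd1 (ENSMUSG00000037071) at chr19:44394455-44407879, Me1 (ENSMUSG00000032418) at chr9:86581371-86695953 and Thrsp (ENSMUSG00000035686) at chr7:97412938-97417730. On the plus strand are Acacb (ENSMUSG00000042010) at chr5:114146535-114250761, Elovl6 (ENSMUSG00000041220) at chr3:129532355-129638495 and Pnpla3 (ENSMUSG00000041653) at chr15:84167837-84187236.

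Per kilobase of exon, the scale on which genes can be compared, Scd1 was the most abundant member at 946 ± 930 CPM per kb (SD, n = 18), followed by Thrsp at 204 ± 161. Acly, Fasn, Srebf1 and Me1 came next, at 58.8 ± 35.6, 55.9 ± 37.0, 49.1 ± 26.02 and 35.2 ± 15.6 CPM per kb, and did not differ among themselves beyond their spread. Elovl6 at 13.7 ± 8.24 and Acacb at 12.7 ± 5.66 CPM per kb were close to each other, and Pnpla3 and Acaca were lowest at 4.03 ± 7.63 and 3.86 ± 1.61. The ratio of the highest to the lowest library ran from 3.80 for Acaca to 29.9 for Scd1 and 53.9 for Thrsp among the 9 members counted in every library. Pnpla3, with 2 libraries at 0, was at least 307-fold higher in its highest library than the limit of 3 counts in either of these.

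Whether storage in space, rather than freezing and transplantation as such, left a trace is asked by setting Space against Ground pups. With edgeR's quasi-likelihood test and Benjamini-Hochberg adjustment over all genes, 0 of the 10 members were called, and so were 0% of all genes (1186 genes, 3 of them members, had an unadjusted p under 0.05, and DESeq2 called 26 genes and 0 members). All 10 members had a fitted log2 change above 0, with a median of 0.66 against -0.02 over all genes tested. The intervals were wide. Thrsp had a log2 change of 1.44, with a 95% interval from 0.18 to 2.70 and an adjusted p of 0.468, and Scd1 one of 0.57, from -0.82 to 1.95, with an adjusted p of 0.850.

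Against BDF1 mice, which ask what the pups of frozen cells shared, the picture was uneven. In Space pups Scd1, the desaturase that makes oleate from stearate, rose by a log2 change of 2.77 ± 0.70 (SE, adjusted p = 0.0359, edgeR), and Acaca, the carboxylase that makes malonyl-CoA, by 0.93 ± 0.25 (adjusted p = 0.0450). These 2 of 10 members compare with 2.34% of all genes called higher. Neither was called with the replicate number as a block in the model. The number called was 0 when Space 1, Space 2, Space 3, BDF1 1, BDF1 2, BDF1 3 or BDF1 4 was left out, 1 without Space 5, Space 6, Ground 6 or BDF1 6, and 3 without Ground 4 or Ground 5. Without BDF1 5 the 2 called were Acaca and Thrsp, and Scd1 was lost. In Ground pups 0 of 10 members were called, against 3.81% of all genes in either direction (4 members and 2655 of 12847 genes had an unadjusted p under 0.05, and DESeq2 called 1103 genes, 3 of them members), and the 2 with the lowest adjusted p went in opposite directions, Srebf1 with a log2 change of -1.04 (adjusted p = 0.0648) and Scd1 with 2.199 (adjusted p = 0.0787). Both comparisons use the same BDF1 libraries.

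**Figure D1:**
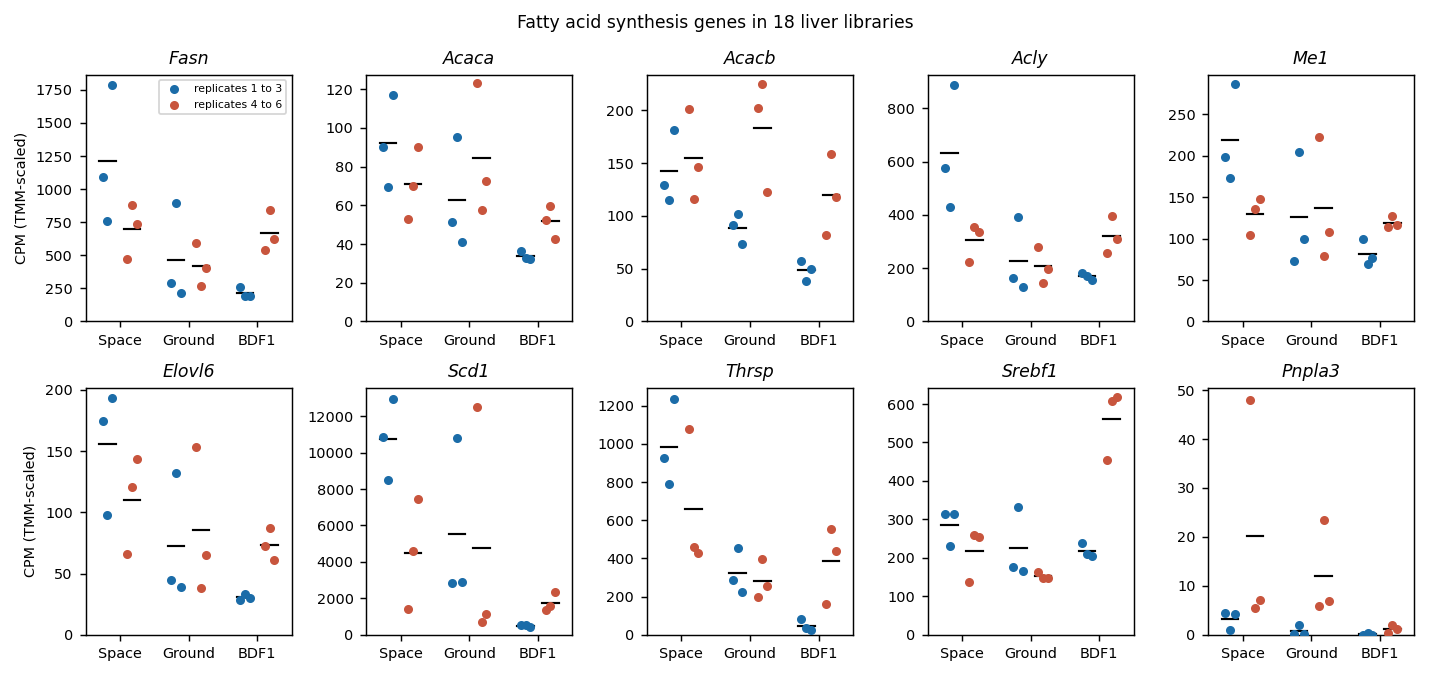
CPM of each of the 10 genes (vertical axis, linear, one scale per gene) in the 3 groups, 1 point per library, replicates 1 to 3 in blue and 4 to 6 in red, with a black line at the mean of 3. BDF1 replicates 1 to 3 lay below BDF1 replicates 4 to 6 for all 10 genes, and Space replicates 1 to 3 lay far above BDF1 replicates 1 to 3 for most.

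The levels split by replicate set. In BDF1 mice all 10 members were lower in each of replicates 1 to 3 than in any of replicates 4 to 6, a pattern held by 20.3% of all genes tested. Fasn averaged 213 ± 40.1 CPM in BDF1 1 to 3 and 668 ± 153.5 CPM in BDF1 4 to 6 (SD, n = 3 each). In the pups the order was mixed: Space pups had 1214 ± 523 CPM of Fasn in replicates 1 to 3 and 697 ± 206 CPM in replicates 4 to 6. Within a group the set could not be told apart from sex, as read from Xist and the Y-linked genes, and the levels of Dbp moved with it.

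The test of whether the difference from BDF1 itself changed between the sets, an interaction term in edgeR over all 18 libraries, called 4 of 10 members in Space pups, against 3.45% of all genes. These were Thrsp (log2 -3.61 ± 0.73, adjusted p = 0.0115), Fasn (-2.45 ± 0.64, adjusted p = 0.0448), Acly (-1.96 ± 0.51, adjusted p = 0.0448) and Srebf1 (-1.75 ± 0.36, adjusted p = 0.0132), all negative, meaning a smaller or more negative difference from BDF1 in replicates 4 to 6. In Ground pups 2 of 10 were called, Thrsp (-3.21 ± 0.72, adjusted p = 0.0249) and Srebf1 (-1.91 ± 0.36, adjusted p = 0.0113), against 2.91% of all genes. For Space against Ground 0 of 10 were called and 0% of all genes (1003 genes had an unadjusted p under 0.05, and DESeq2 called 28 genes). The calls of Srebf1 in both comparisons, and of Thrsp in Space pups, held whichever library was left out. That of Thrsp in Ground pups was lost on leaving out any one of 6 libraries, and those of Fasn and Acly on leaving out any one of 12. The comparisons are therefore given for each set. Where groups within a set are said not to overlap, this only describes the values. The share of all genes whose groups part in that way was not counted.

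In replicates 1 to 3, 9 of the 10 members rose in Space pups relative to BDF1 mice, against 5.07% of all genes called higher, and the median log2 change of the 10 was 2.12. In Ground pups 3 of 10 were higher, namely Scd1, Thrsp and Acacb, against 2.51% of all genes, with a median of 1.00. The Space count was 6 without Space 3 and 5 without BDF1 2 or BDF1 3, and Acaca, Acacb, Elovl6, Scd1 and Thrsp were called whichever library of the set was left out. Acly, Fasn and Me1 were lost without BDF1 2 or BDF1 3, Acly also without Space 3, and Me1 also without Space 1 or Space 3. The one member called in replicates 4 to 6 was Srebf1, which was lower in both kinds of pup, against 1.90% of genes called lower in Space pups and 3.25% in Ground pups.

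**Figure D2:**
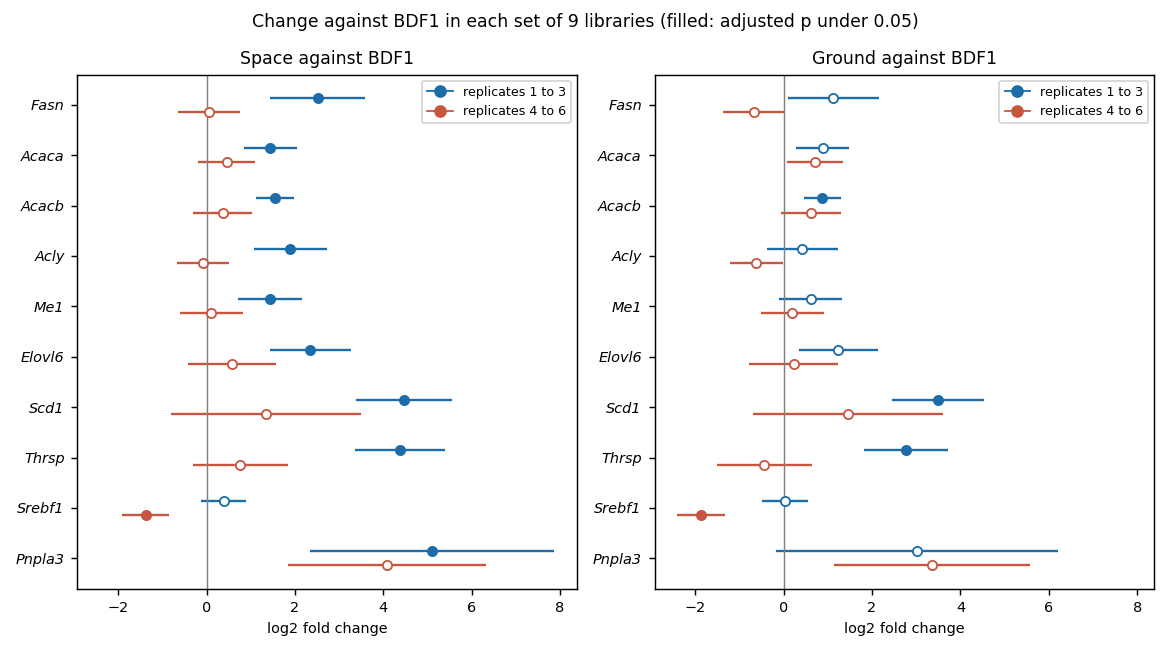
Log2 fold change against BDF1 (horizontal axis) of each gene, with 95% intervals, fitted in the 9 libraries numbered 1 to 3 (blue) and the 9 numbered 4 to 6 (red), and filled where the adjusted p was under 0.05. In Space pups 9 of 10 blue points are filled, and in both panels the one filled red point is Srebf1, below 0.

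The genes that supply carbon and NADPH are taken first. Acly, ATP citrate lyase, which splits citrate to acetyl-CoA in the cytosol, was at 574, 430 and 888 CPM in Space 1 to 3, at 162, 392.5 and 129 CPM in Ground 1 to 3, and at 183, 171 and 156 CPM in BDF1 1 to 3. Each Space library was above every other library of that set. The log2 change from BDF1 was 1.89 ± 0.38 in Space pups (SE, adjusted p = 0.0132, edgeR) and 0.42 ± 0.37 in Ground pups (adjusted p = 0.554). Acly in replicates 4 to 6 was between 224 and 356 CPM in Space, between 146 and 279 CPM in Ground and between 256 and 395 CPM in BDF1 libraries, and these ranges overlapped.

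Me1, the cytosolic malic enzyme that makes NADPH, was at 199, 173 and 287 CPM in Space 1 to 3, at 72.5, 205 and 99.5 CPM in Ground 1 to 3 and at 99.1, 69.8 and 76.4 CPM in BDF1 1 to 3. Space pups lay above BDF1 mice with no overlap, by a log2 change of 1.43 ± 0.33 (adjusted p = 0.0244). The group means of Me1 in replicates 4 to 6 were 129, 136.5 and 119 CPM for Space, Ground and BDF1, and the Space difference from BDF1 was 0.11, with a 95% interval from -0.61 to 0.83. Of 7 further genes of carbon and NADPH supply, 1 was called in Space pups against BDF1 over all libraries with group alone in the model: G6pdx, the first enzyme of the pentose phosphate pathway, rose by 1.205 on the log2 scale (adjusted p = 0.0245). In Ground pups 0 of the 7 were called by edgeR in that model, where G6pdx had an adjusted p of 0.0738. With the replicate number as a block, or the replicate set as a covariate, G6pdx and Pgd were called higher in Space pups and G6pdx in Ground pups. Within replicates 1 to 3 the genes called higher were Mdh1, Acss2, Pgd and Aacs in Space pups, 4 of the 7, and Aacs in Ground pups. Of all genes 5.07% and 2.51% were called higher there. Aacs, which makes acetoacetyl-CoA, went the other way within replicates 4 to 6, where it fell by 1.97 (adjusted p = 0.0396) in Space pups and fell by 2.31 (adjusted p = 0.0191) in Ground pups, while G6pdx was higher in Space pups (1.45, adjusted p = 0.0392).

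Acaca and Acacb encode the acetyl-CoA carboxylases: the product of Acaca feeds synthesis, and that of Acacb, at the mitochondrial surface, restrains fatty acid oxidation. Acaca was at 90.2, 69.5 and 117 CPM in Space 1 to 3 and between 32.4 and 36.4 CPM in BDF1 1 to 3, a log2 change of 1.45 ± 0.27 (adjusted p = 0.0104). Acacb was at 129, 115 and 182 CPM in Space 1 to 3, at 91.2, 102 and 73.5 CPM in Ground 1 to 3 and at 57.1, 38.7 and 49.4 CPM in BDF1 1 to 3. The 3 groups did not overlap for Acacb, and it rose in both kinds of pup, by 1.55 ± 0.19 (adjusted p = 0.00114) and 0.87 ± 0.19 (adjusted p = 0.0299). The Ground call was lost without Ground 1, BDF1 2 or BDF1 3. Among replicates 4 to 6, the genes peaked in different libraries, Acaca in Ground 4 at 123 CPM and Acacb in Ground 5 at 224.5 CPM.

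Fasn, fatty acid synthase itself, was at 1094, 761 and 1786 CPM in Space 1 to 3, at 287, 893 and 214 CPM in Ground 1 to 3 and at 259, 189 and 190 CPM in BDF1 1 to 3. Ground 2 stood with the Space libraries and Ground 1 and 3 with the BDF1 libraries. The log2 change from BDF1 was 2.51 ± 0.49 in Space pups (adjusted p = 0.0113) and 1.12 ± 0.47 in Ground pups (adjusted p = 0.199). The Space pups of replicates 4 to 6 had 474.5, 880 and 735 CPM, the Ground pups 590, 265 and 402 CPM and the BDF1 mice 543, 839.5 and 622 CPM, and the log2 changes from BDF1 were 0.05 and -0.67, with adjusted p of 0.931 and 0.215.

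Elovl6, the elongase that takes palmitate to stearate, was at 175, 98.1 and 193.5 CPM in Space 1 to 3 and between 28.7 and 33.4 CPM in BDF1 1 to 3, a log2 change of 2.34 ± 0.42 (adjusted p = 0.00819). Ground 2, at 132 CPM, was again among the Space values, and Ground 1 and 3 were at 45.0 and 39.2 CPM. Scd1 was at 10854, 8484 and 12932 CPM in Space 1 to 3, at 2862, 10777 and 2881 CPM in Ground 1 to 3 and at 523, 511 and 432 CPM in BDF1 1 to 3. Both kinds of pup lay above BDF1 mice without overlap, by 4.46 ± 0.49 (adjusted p = 0.000717) in Space and 3.49 ± 0.47 (adjusted p = 0.00453) in Ground pups. Scd1 scattered widely in replicates 4 to 6, with 1409, 4608 and 7438 CPM in Space, 12524, 694 and 1141 CPM in Ground and 1383, 1552 and 2324 CPM in BDF1 libraries. Ground 4 was above all other libraries of the set, and the 95% interval of the Ground difference from BDF1 ran from -0.70 to 3.61. Scd2, a related desaturase of other tissues, was between 1.59 and 5.01 CPM in all 18 libraries, with a log2 change from BDF1 of -0.04 in Space pups (adjusted p = 0.959), whereas Scd3 and Scd4 were at most at 0.120 and 0.118 CPM, within the limit that a count of 0 allows. Of 10 other genes of elongation and desaturation, 0 were called in the 3 comparisons over all libraries with group alone. With the replicate set as a covariate Elovl3 was called lower in Ground pups against BDF1. Within replicates 4 to 6 Elovl3 was called lower in both kinds of pups. Within replicates 1 to 3 the calls were 1 higher and 2 lower in Ground pups and 0 in Space pups. All genes called there came to 4.40% in Ground and 8.56% in Space pups.

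Thrsp, also known as Spot 14, a nuclear and cytosolic protein that goes with lipogenesis, was at 925, 792 and 1234 CPM in Space 1 to 3, at 289, 452 and 224 CPM in Ground 1 to 3 and at 84.8, 33.6 and 22.9 CPM in BDF1 1 to 3. The 3 groups did not overlap, and the log2 changes from BDF1 were 4.39 ± 0.46 (adjusted p = 0.000585) and 2.77 ± 0.43 (adjusted p = 0.00739). Thrsp in replicates 4 to 6 was at 1078, 462 and 429 CPM in Space, at 197, 398 and 253 CPM in Ground and at 159, 556 and 436 CPM in BDF1 libraries, which overlapped. Mid1ip1, its paralog, was highest in BDF1 4 to 6, at 95.5, 99.0 and 95.8 CPM, against 12.3 to 55.3 CPM in the 6 pup libraries of that set. There it fell by 2.08 on the log2 scale in Ground pups (adjusted p = 0.0167), and its change in Space pups was -1.33 (adjusted p = 0.0770).

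Srebf1, which encodes the SREBP-1 factors, had a pattern of its own. It was at 313, 230 and 314 CPM in Space 1 to 3, at 176, 333 and 165 CPM in Ground 1 to 3 and at 240, 210 and 206 CPM in BDF1 1 to 3, and it was the one member without a call in that set (Space against BDF1 0.39 ± 0.24, adjusted p = 0.341). In replicates 4 to 6 the BDF1 mice had 454, 608 and 618 CPM, above all 6 pup libraries, which were at 137, 259 and 254 CPM in Space and at 163, 148 and 149 CPM in Ground. It fell there by 1.37 ± 0.24 in Space pups (adjusted p = 0.0178) and by 1.87 ± 0.24 in Ground pups (adjusted p = 0.00540). The Space call was lost without BDF1 5 or BDF1 6. Both calls held with total counts, DESeq2 size factors and DESeq2. The pups of this set were also the libraries with the high summed hepatocyte markers, and the part of that in the result was not tested. The table counts the gene as a whole, so SREBP-1a and SREBP-1c cannot be told apart, and it shares 109 exon bases with Rai1 on the opposite strand. Insig1, a SREBP target that holds SREBP in the endoplasmic reticulum, was likewise highest in BDF1 4 to 6, at 571, 860 and 677 CPM, against 124 to 274 CPM in the pups of that set, and fell by 1.55 (adjusted p = 0.00787) in Space pups and fell by 2.205 (adjusted p = 0.00201) in Ground pups. Over all libraries 2 of 16 other lipogenic regulators were called, both lower in Ground pups: Insig1 (log2 -1.34, adjusted p = 0.0441, but 0.0684 with the replicate number as a block) and Srebf2, the sterol-responsive relative of Srebf1 (-0.70, adjusted p = 0.0236). In Space pups against BDF1 0 of the 16 were called by edgeR with group alone, and Srebf2 there was at -0.46 (adjusted p = 0.101). With the replicate set as a covariate Srebf2 (-0.46, adjusted p = 0.0464) and Insig2, a relative of Insig1 (0.85, adjusted p = 0.00676), were called in Space pups. Within replicates 4 to 6 Insig2 rose by 1.37 (adjusted p = 0.0105) in Space pups and by 0.95 (adjusted p = 0.0254) in Ground pups.

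Pnpla3, which encodes adiponutrin, a lipid droplet protein and SREBP-1c target, was the least abundant member by CPM. It was at 4.42, 0.938 and 4.16 CPM in Space 1 to 3, at 0.0979, 2.05 and 0.105 CPM in Ground 1 to 3 and at 0, 0.274 and 0 CPM in BDF1 1 to 3, where at most 5 reads were counted in a library. Space pups were called higher than BDF1 mice in that set (adjusted p = 0.0311), but this was lost without Space 1, Space 3, BDF1 1, BDF1 2 or BDF1 3, and the fitted fold of a gene with libraries at 0 depends on the prior count. It was at 48.1, 5.52 and 7.13 CPM in Space 4 to 6, at 5.78, 23.5 and 6.90 CPM in Ground 4 to 6 and at 0.297, 2.01 and 1.15 CPM in BDF1 4 to 6. All 6 pup libraries were above the 3 BDF1 libraries there, with adjusted p of 0.0517 and 0.0720. The values of Space 4 and Ground 5 stood far above the rest, and within replicates 4 to 6 these are the libraries with the lowest Fasn of their groups. Pnpla5, a related gene on the opposite strand 44661 bases away on chromosome 15, was highest in the same 2 libraries, at 27.9 and 19.7 CPM, and at most at 0.0501 CPM in the BDF1 mice.

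In replicates 1 to 3 the number of members called for Space against Ground hung on 1 library. With all 9 libraries, 0 of the 10 members were called for Space against Ground, against 0.110% of all genes (14 genes). Of the members 8, and of all 12739 genes tested 1731, had an unadjusted p under 0.05, and DESeq2 called 202 genes, Acacb among them. Without Ground 2, all 10 members were called higher in Space pups, against 4.50% of all genes. Without that library the log2 change was 2.29 ± 0.31 for Fasn (adjusted p = 0.00420), 2.13 ± 0.26 for Acly (adjusted p = 0.00281), 1.92 ± 0.18 for Scd1 (adjusted p = 0.000754) and 0.76 ± 0.13 for Srebf1 (adjusted p = 0.00987). Leaving out any of the other 8 libraries of the set gave 0 calls. Ground 2 was left out after its values had been seen, because the effect of each library was examined, and nothing in the labels marks it. The adjusted p without it therefore show how much rests on that library and do not test a difference between the groups. Over all 9 libraries of the set the 11 non-parenchymal markers had a median log2 change of -0.69 for Space against Ground, with 2 of 11 above 0 and 0 called by edgeR, and over all 18 libraries a median of -0.28, with 1 of 11 above 0. Their part in the members' result was not tested. Among the 9 libraries numbered 4 to 6, 0 of 10 members and 0% of all genes were called (1322 genes had an unadjusted p under 0.05, and DESeq2 called 48 genes and 0 members), and the count of members was 0 with each of the 9 libraries left out.

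**Figure D3:**
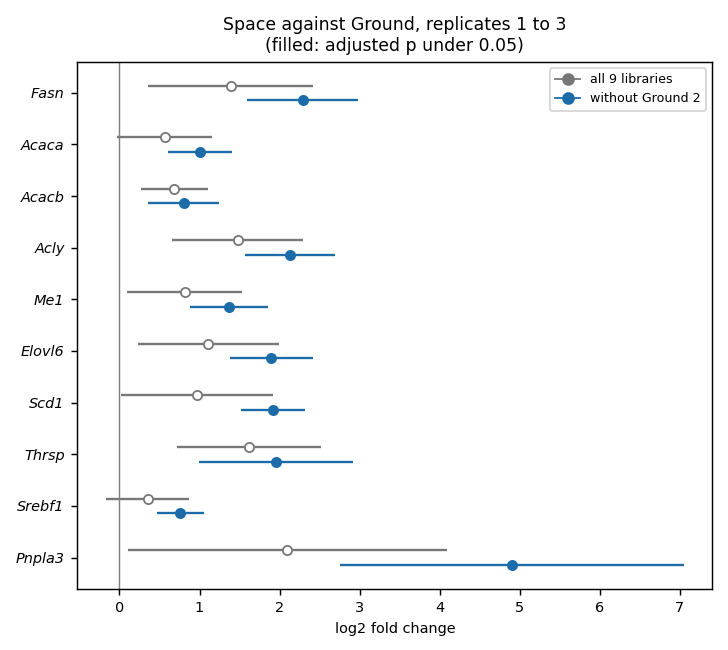
Log2 fold change of Space against Ground pups (horizontal axis) of each gene with 95% intervals in replicates 1 to 3, with all 9 libraries (grey) and without Ground 2 (blue), filled where the adjusted p was under 0.05. None of the grey points and all 10 blue points are filled.

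With the replicate set as a covariate over all 18 libraries, 6 of 10 members rose in Space pups over BDF1 mice (Acaca, Acacb, Elovl6, Pnpla3, Scd1 and Thrsp), against 5.59% of all genes called higher. In Ground pups 4 of 10 were called, against 11.2% of all genes: Acaca, Pnpla3 and Scd1 higher and Srebf1 lower. With the replicate number as a block, 2 members were called in Space pups, but other ones, Acacb (adjusted p = 0.0404) and Pnpla3 (adjusted p = 0.0176), against 3.56% of all genes called higher, while Scd1 and Acaca had adjusted p of 0.0566 and 0.0517.

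How closely the members moved together was measured as the correlation of log2 CPM with Fasn over the 9 libraries of each set, 18 relations in all, with two-sided exact permutation tests and Benjamini-Hochberg adjustment. In replicates 1 to 3 all 9 other members passed, with Pearson r between 0.829 (Srebf1, Spearman rho 0.717, adjusted exact permutation p = 0.0169 for r and 0.0553 for rho) and 0.979 (Acly, rho 0.833, adjusted permutation p = 0.00136 and 0.0186). Of the 12837 other genes tested, 3.80% had an r with Fasn of 0.829 or more in that set, or 6.53% counting either sign. Their median r was -0.0188. Over the 45 pairs of members the median r was 0.901, and 23 pairs exceeded 0.9. The differences between groups are part of these values. With each library centred on its group in the set, all 9 had an r between 0.677 for Thrsp and 0.994 for Acaca. Of the other genes, 12.3% were at 0.677 or more, or 25.3% counting either sign. In the test 6 of 9 passed, Thrsp among them, but not Elovl6 (0.931), Me1 (0.901) or Pnpla3 (0.785). The centred test reorders libraries within each group alone, so few orders are possible. Without Space 1 and Space 3, the libraries farthest from the median of Fasn, r stayed between 0.713 and 0.964, and 4 of 9 passed over 7 libraries (Acaca, Elovl6, Me1 and Scd1).

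In replicates 4 to 6, 2 of 9 members passed, the lower at an r of 0.753. Of the other genes 4.16% reached or exceeded it, or 8.33% counting either sign. Acly still followed Fasn (r = 0.990, rho = 0.983, adjusted exact permutation p = 9.92e-05 and 0.000893), and r was 0.994 without Space 5 and Ground 5. Elovl6 was the other member to pass (r = 0.753, rho = 0.633, adjusted exact permutation p = 0.0297 and 0.0978), but its r was 0.479 without those 2 libraries. Scd1, Elovl6 and Me1 went with each other, at r of 0.926 for Scd1 with Elovl6, 0.927 for Scd1 with Me1 and 0.918 for Elovl6 with Me1. Acacb went with Pnpla3 (r = 0.798), and Pnpla3 against Srebf1 (r = -0.829). The pair values are a description over 9 libraries that share scaling and groups. Over the 45 pairs the median r was 0.119, and 17 pairs were negative. With each library centred on its group in the set, the r with Fasn was 0.990 for Acly, 0.902 for Elovl6, 0.855 for Me1, 0.832 for Acaca, 0.805 for Scd1 and 0.696 for Srebf1. Of these, Acly, Me1 and Srebf1 passed, 3 of 9 in all. Of the other genes 10.5% were at 0.696 or more, or 22.3% counting either sign. The median over the 9 relations was 0.805 centred and 0.586 uncentred. Acacb, Thrsp and Pnpla3 were below 0, at -0.133, -0.331 and -0.524.

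**Figure D4:**
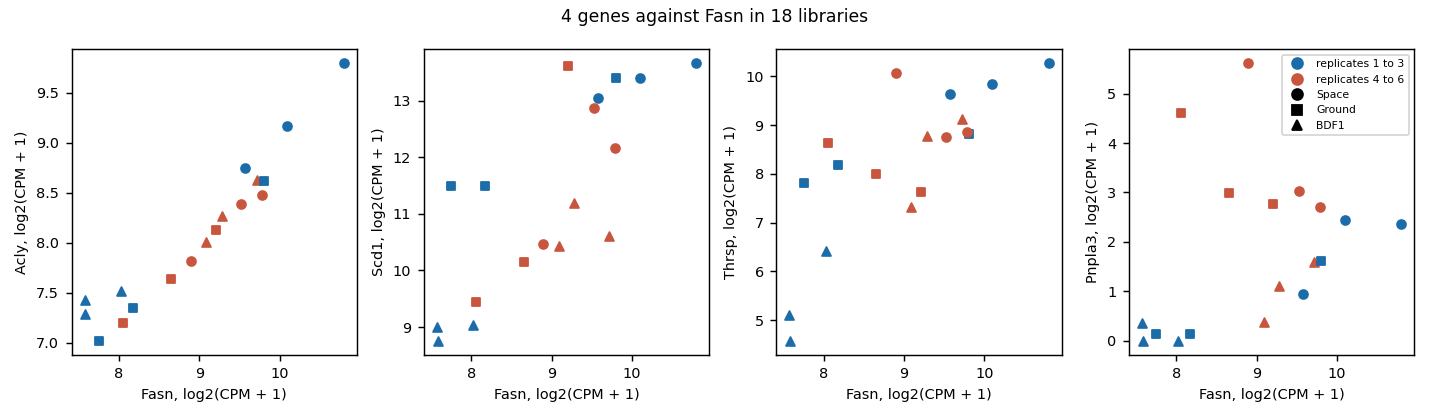
Log2 of CPM + 1 of Acly, Scd1, Thrsp and Pnpla3 (vertical axes) against that of Fasn (horizontal axes), 1 point per library, blue for replicates 1 to 3 and red for 4 to 6, with circles for Space, squares for Ground and triangles for BDF1. Acly lies close to one line in both sets, whereas the 2 highest Pnpla3 values, from Space 4 and Ground 5, come with the lowest Fasn of the red circles and of the red squares.

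**Figure D5:**
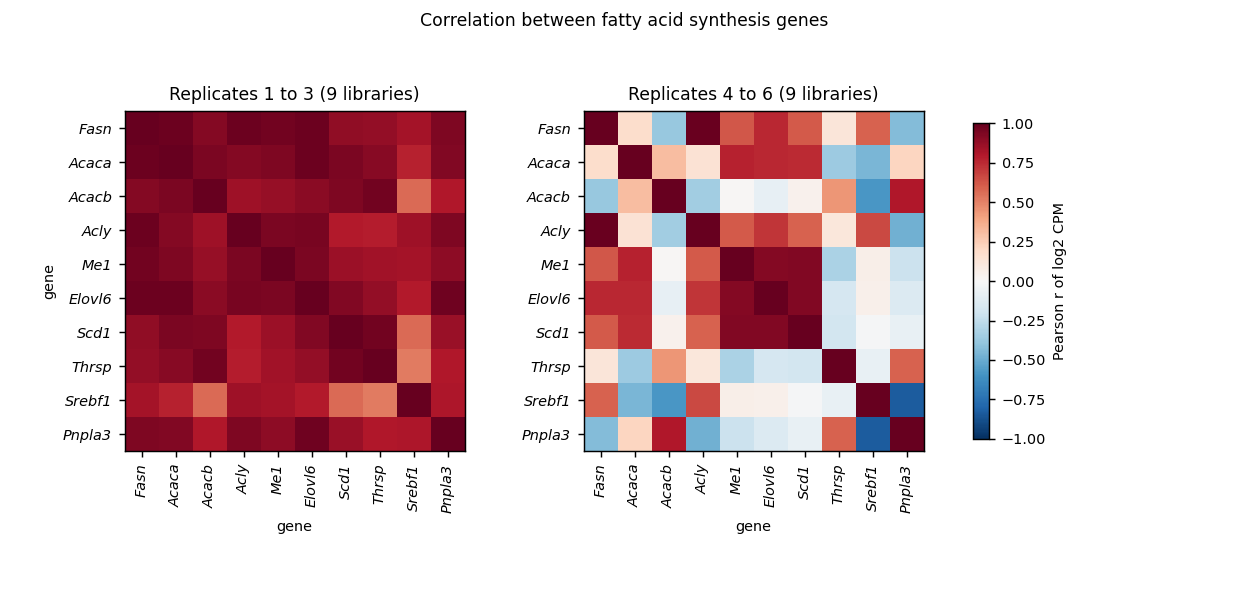
Pearson r of log2 CPM between each pair of the 10 genes over 9 libraries, on a colour scale from -1 to 1, for replicates 1 to 3 (left) and 4 to 6 (right). On the left no pair is below 0.517, and on the right 17 of 45 pairs are below 0.

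Over all 18 libraries, with values centred in each set, the mean profile of the 10 members was highest in Space 3, Space 1 and Ground 2 and lowest in BDF1 3, BDF1 2 and BDF1 1. Each member's r to the mean of the other 9 was 0.946 for Fasn, 0.939 for Elovl6, 0.574 for Pnpla3 and 0.202 for Srebf1. The 5 genes outside the list most like this profile, of 11715 compared by Pearson r over 18 libraries, were Ank (0.956), a pyrophosphate transport protein, Uox (0.905), urate oxidase, Sucnr1 (0.901), the succinate receptor, Chrna4 (0.895), a nicotinic receptor subunit, and Acss2 (0.870), which makes acetyl-CoA from acetate.

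The genes around the pathway were compared over all libraries. Among genes of sugar use, Pklr, liver pyruvate kinase, rose in Space pups against BDF1 (log2 1.79 ± 0.25, adjusted p = 0.00190), as did Tkfc, which acts in fructose breakdown (0.89, adjusted p = 0.00636). Both also rose in Ground pups, Pklr by 1.38 (adjusted p = 0.00865) and Tkfc by 0.67 (adjusted p = 0.0350). Of 6 genes of triglyceride assembly, Lpin1, a phosphatidate phosphatase, rose in Space pups (2.60 ± 0.56, adjusted p = 0.0153), and 0 were called in Ground pups with group alone, where Lpin1 had a log2 change of 1.91 (adjusted p = 0.0552). With the replicate set as a covariate Lpin1 was called higher in Ground pups too (1.67, adjusted p = 0.0431), and with the replicate number as a block in neither (adjusted p of 0.0634 and 0.112). Lpin1 was at 337 to 550 CPM in Space 1 to 3, at 182 to 223 CPM in Ground 1 to 3 and at 22.3 to 29.7 CPM in BDF1 1 to 3. In that set Lpin1 was called in Space against BDF1 (4.09), in Ground against BDF1 (2.96) and in Space against Ground (1.13, adjusted p = 0.0445).

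Of 15 genes that rise in fasting, Angptl4, an inhibitor of lipoprotein lipase, was the one called in Space pups with group alone (1.74 ± 0.33, adjusted p = 0.00706), and it rose as much in Ground pups (1.74, adjusted p = 0.0103), where Acot1, an acyl-CoA thioesterase, rose too (1.79, adjusted p = 0.0422). Fgf21, a fasting hormone of the liver, had log2 changes of 1.56 (adjusted p = 0.146) and 2.01 (adjusted p = 0.0658) with group alone. It was called higher in Ground pups with the replicate block (adjusted p = 0.0371) and with the set as a covariate (adjusted p = 0.0292), and within replicates 4 to 6 in both kinds of pup, by 3.67 (adjusted p = 0.0206) in Space and 3.50 (adjusted p = 0.0182) in Ground pups. With the replicate set as a covariate 5 of the 15 were called higher and 1 lower in Space pups, and 6 higher and 1 lower in Ground pups. Those fits called 1330 and 1442 of all 12847 genes tested. Within replicates 1 to 3, 3 of the 15 were called lower and 1 higher in Space pups, and 2 lower and 2 higher in Ground pups. There 8.56% and 4.40% of all genes were called in either direction. Within replicates 4 to 6, 5 of the 15 were called in Space and 7 in Ground pups, all higher than in BDF1 mice, against 2.49% and 3.64% of all genes called higher. Acot1 was highest in Ground 5 and Space 4, at 60.4 and 59.2 CPM, the libraries with the highest Pnpla3. Among clock genes, Per1 rose in Ground pups against BDF1 (2.21, adjusted p = 0.0344), and in Space pups it had a log2 change of 1.91 (adjusted p = 0.0537). In replicates 1 to 3, where Dbp was at 2.69 to 5.98 CPM in Space, 1.90 to 4.30 CPM in Ground and 0.836 to 1.10 CPM in BDF1 libraries, 9 of 14 tested clock genes were called in Space pups, 7 of them higher, and 6 in Ground pups, all higher. All genes called in the same fits came to 8.56% in Space and 4.40% in Ground pups. For Space against Ground in that set 1 of the 14 was called, Npas2, which was lower in Space pups. The part of sampling time or feeding in the members' results was not tested.

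Of 11 non-parenchymal markers 1 was called in each comparison with BDF1 over all libraries with group alone, Clec4g lower in Space pups (-0.83, adjusted p = 0.0199) and Stab2 higher in Ground pups (0.98, adjusted p = 0.0261), both of sinusoidal endothelium. Within replicates 1 to 3, 2 were called higher and 1 lower in Space pups (Lrat, Reln and Clec4g). In Ground pups 2 were called there, both higher (Lrat and Stab2). Within replicates 4 to 6 the calls were 0 in Space pups and 1 in Ground pups, Stab2. Apoa1 was the 1 of 8 hepatocyte markers called, higher in both kinds of pup (1.01, adjusted p = 0.0335 and 0.94, adjusted p = 0.0460) with group alone. Both calls of Apoa1 were lost with the replicate number as a block (adjusted p = 0.0511 and 0.0737), and the set as a covariate called Alb, serum albumin, as well. Within replicates 1 to 3, 2 of the 8 were called in Space pups, Ttr and Ass1, both higher, and 0 in Ground pups. Within replicates 4 to 6 it was 2 in Space pups, both higher, and 4 in Ground pups, 3 of them higher. The part of these markers in the members' results was not tested.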

How the data were processed

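The authors sequenced liver RNA with a stranded mRNA kit and deposited raw read counts per gene, whole numbers without normalization. The submitters' processing notes name bcl2fastq 2.20, cutadapt 4.6, HISAT2 2.2.1, HTSeq 2.0.2 and the build mm10. The strand setting of the counting is not given in the sources used here, so reads of a gene and an overlapping antisense gene may not be separable. Positions and exon lengths are from GENCODE M21 and upstream sequences from RefSeq (GRCm38.p6). A window was listed for 9 of the 10 genes. Scd1 had no entry.

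Groups and replicate numbers came from the labels. Counts were filtered with filterByExpr, normalised by TMM, and the quasi-likelihood test of edgeR 4.0.16 in R 4.3.3 was run with group alone over 18 libraries, with Benjamini-Hochberg adjustment over all genes tested and a threshold of 0.05. Log2 CPM used a prior count of 2. Correlations and their permutation tests were computed in numpy 2.4.6, with ranks from scipy 1.17.1. DESeq2 1.42.0, other scalings, no filter, the replicate set or number in the model and each library left out were alternatives. Fits within each replicate set under other scalings, with DESeq2 or with a library left out were added after seeing the data. The scripts were tested on simulated data.

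The members and lists were chosen with earlier results of these data known. Named beside them were genes of the other lists called in a comparison, up to the 4 with the largest change per list, Scd2, Scd3, Scd4, Mid1ip1, Srebf2, Pnpla5, Fgf21, Dbp and Xist, and the 5 genes most like the mean profile among those with a mean of at least 1 CPM. Rai1 was named for its overlap. Some genes that the rule names are not reported here.

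Libraries with the same number deviated together from their group means (r from 0.195 to 0.696 over 18 pairs, median 0.524), and so did libraries with other numbers of the same set (median 0.550 over 36 pairs). The labels name no litter or batch behind a number.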

Additional observations from a re-analysis of the deposited data

Results flagged for a closer look

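In 30 sets of 6 libraries (10 genes in 3 groups), 3 single libraries stood apart from the rest of their group. The cut used gives about 1 in 20, or 1.5, by chance if the values of a group come from 1 normal population. Each group here joined both replicate sets, and the genes are not independent, so 1.5 is no firm benchmark. Srebf1 was highest in Ground 2, at 333 CPM, with a gap to the next library of 0.852 of the range of the group. Pnpla3 was highest in Space 4, at 48.1 CPM, with a gap of 0.869 of the range, and in Ground 5, at 23.5 CPM, with a gap of 0.709. In Space 4, Pnpla3 rested on 612 reads.

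The difference from BDF1 mice changed between the replicate sets for 4 members in Space pups and 2 in Ground pups, by the interaction test in edgeR. As the log2 change in replicates 4 to 6 minus that in replicates 1 to 3, it was -3.61 for Thrsp, -2.45 for Fasn, -1.96 for Acly and -1.75 for Srebf1 in Space pups, and -3.21 for Thrsp and -1.91 for Srebf1 in Ground pups. The 2 lists share the BDF1 libraries.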

How the results depend on the processing

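The number of members called, by edgeR unless named, moved with the model. For Space against BDF1 it was 2 with group alone, 6 with the replicate set as a covariate, 9 in replicates 1 to 3, 1 in replicates 4 to 6, 5 with DESeq2, 1 with total counts instead of TMM factors and 1 with no filter, and with one library left out it ran from 0 to 3. For Ground against BDF1 it was 0 with group alone and 4, 3, 1, 3 and 1 with the covariate, in replicates 1 to 3, in replicates 4 to 6, with DESeq2 and with total counts, and from 0 to 1 with a library left out. The replicate block gave 2 and 0. For Space against Ground it was 0 with group alone under each of these. Of all genes, those called higher for Space against BDF1 were 611 of 14452 with DESeq2, 66 of 12847 with total counts and 172 of 21614 with no filter. For Ground against BDF1, DESeq2 called 1103 of 14452 genes and total counts 943 of 12847, in either direction. With total counts the median log2 change of all genes against BDF1 was -0.25 in Space and -0.24 in Ground pups.

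Interaction calls ran from 2 to 5 in Space pups and from 1 to 3 in Ground pups with a library left out. Within replicates 1 to 3, the count of members with a library left out ran from 0 to 10 for Space against Ground, from 5 to 10 for Space against BDF1 and from 2 to 4 for Ground against BDF1, and DESeq2 gave 1 for Space against Ground. Within replicates 4 to 6 it ran from 0 to 2 for Space and from 1 to 2 for Ground against BDF1, and total counts gave 2 and 3. Of 18 relations with Fasn, 11 passed, 5 without the 2 farthest libraries of each set, 9 centred within group (6 in replicates 1 to 3 and 3 in replicates 4 to 6), 13 with total counts and 11 with a prior count of 0.5. The cause of these shifts was not tested, beyond the smaller number of libraries where some were left out.

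Uncalled changes that reversed were, in replicates 4 to 6, Acaca (-0.25), Acacb (-0.25), Scd1 (-0.10) and Me1 (-0.085) for Space against Ground, Acly (-0.075) for Space against BDF1, and Fasn (-0.67) and Thrsp (-0.44) for Ground against BDF1. In replicates 1 to 3, Srebf1 (0.39 for Space and 0.035 for Ground against BDF1) and Acly (0.42, Ground against BDF1) reversed. Fasn for Ground against BDF1, at 0.0041 with group alone, was -0.23 with total counts, -0.0074 with no filter and from -0.33 to 0.30 with a library left out. With a library left out, Acacb (-0.0028 to 0.33) and Pnpla3 (-0.52 to 1.98) for Space against Ground and Acly (-0.43 to 0.022) for Ground against BDF1 also reversed. Depth limited Pnpla3 and the Scd1 relatives, with few or no reads in some libraries.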
